A study of Mus musculus with 8 samples.

Results

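N6-methyladenosine (m6A), a methylated adenosine of mRNA, was mapped by immunoprecipitation and sequencing in mouse primary T cells. Here 10 genes of the NF-kB system were followed. They include the Rel family factors Nfkb1, Nfkb2, Rel, Rela and Relb and the IkB genes Nfkbia, Nfkbiz and Nfkbid. The others are the deubiquitinase gene Tnfaip3 and the IkB kinase gene Ikbkb. All 10 genes were chosen by gene symbol. Of these 9 had a peak in each of the 2 deposited lists, of 12413 genes with a peak in either list. Nfkbid had no peak in either. The first condition was PTC at 24 h, a name that the labels do not explain. It was set against cells labelled control at the same 24 h, both grown in serum-containing medium with antibiotics. Each condition had 2 immunoprecipitates and 2 inputs, 8 samples in 4 groups. Whether these came from different mice or cultures is not stated in the labels, nor is the mouse strain or age. No genetic change is named in the labels.

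The files give 1 peak list per condition and no value per sample, so no test between conditions was possible and no peak has a replicate check. The PTC list held 23368 peaks in 10859 genes and the control list 29586 peaks in 11390 genes. Read depth is unknown. Fold enrichment and false discovery rate (FDR) are the authors' own values for each peak, with the fold taken as immunoprecipitate over input, and both are used to rank, describe and filter peaks inside each list. Where genes are set side by side after such a filter, each list was filtered by itself, and the result depends on the threshold. In bulk RNA, a smaller number of cells of a type and less RNA per cell cannot be told apart. All 12 T cell markers examined had peaks in both lists, led in the PTC list by Cd8b1 and Cd28. Of 10 B cell markers 9 did so, led by Igkc and Cd79b and with Cd79a unlisted. Of 10 myeloid markers 6 did so, led by Mpeg1 and S100a8, with Tyrobp in the PTC list only and Itgam, Adgre1 and Cd68 unlisted. As NF-kB genes are used in all of these cells, the cell type that a peak came from cannot be told apart, and the part of other cells in the results was not tested.

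In resting cells dimers of Rel family proteins are held in the cytoplasm by IkB proteins. Signals from the T cell receptor, CD28 or tumour necrosis factor receptors activate the IkB kinase, IkB is phosphorylated and degraded, and the dimers enter the nucleus. Several inhibitors, among them Nfkbia and Tnfaip3, are themselves target genes of NF-kB and end the response, and many of the mRNAs in the system are short-lived. m6A marks are read by YTH proteins that can speed mRNA decay, and the marks are known to gather near stop codons and in long internal exons.

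The 9 listed genes held 28 PTC peaks and 29 control peaks, a ratio of 0.966, while the ratio over all peaks was 0.79. Measured in nucleotides of exon the ratio was 0.816 for these genes and 0.806 over all peaks. All 9 were in both lists, as were 79.2% of the genes in either list. With the control list shortened by FDR to the length of the PTC list all 9 stayed in both, with 25 control peaks, and of all genes 78.8% were then in both lists, 13.6% in the PTC list only and 7.52% in the control list only. Rel, Nfkb1 and Nfkbiz had more PTC than control peaks, Nfkb2, Relb, Tnfaip3 and Ikbkb had fewer, and Rela and Nfkbia had the same number. Over all genes in both lists 16.0% had more PTC peaks, 41.6% had fewer and 42.4% had as many. Some of these directions changed with the peaks kept. The counts of Nfkb1 and Ikbkb include peaks in exons of noncoding transcripts. On the coding mRNA alone Nfkb1 had fewer PTC than control peaks and Ikbkb had more. Ikbkb had 5 PTC and 4 control peaks at equal list length, and 3 PTC and 2 control peaks at a −log10 FDR of 5 or more, where Nfkb1 had 3 in each list. At a fold of 4 or more Nfkbiz had 0 PTC peaks and 1 control peak, Tnfaip3 had 2 in each list and Rel had none. Part of the count depended on where a stretch was divided, since 2 Rel peaks of the PTC list lay inside 1 control peak, as did 3 Nfkbiz peaks. Rel also had 2 distal PTC peaks and 1 distal control peak without a partner.

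**Figure D1:**
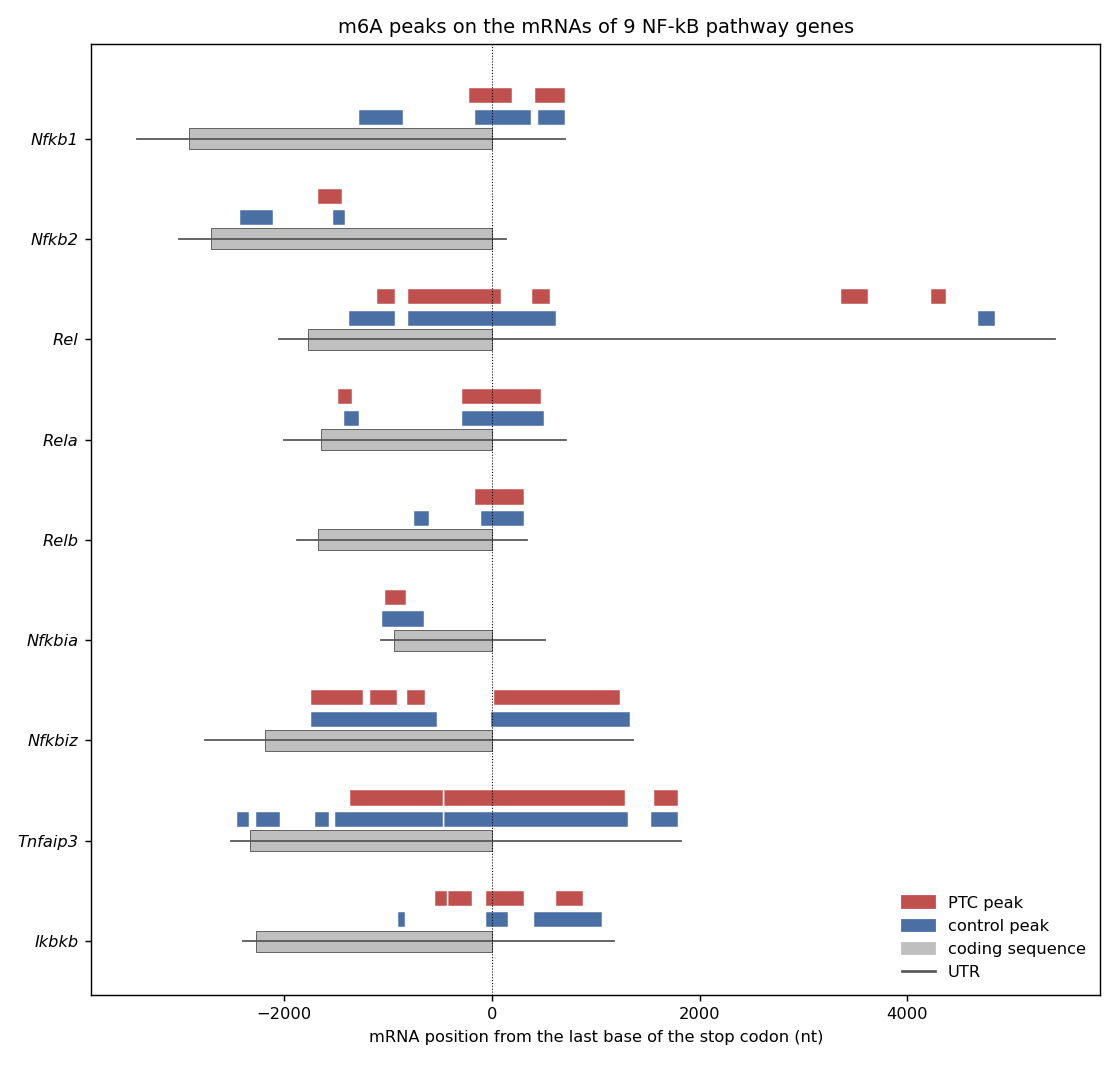
Peaks of the PTC list (red) and the control list (blue) drawn above the mRNA of each of the 9 listed genes, in nucleotides from the last base of the stop codon, with the coding sequence as a grey box and UTRs as a line. In both lists 7 of the 9 genes had a peak on the 3' UTR, while Nfkb2 and Nfkbia had peaks only further upstream. The 5 PTC and 6 control peaks of Nfkb1 and Ikbkb with a midpoint in exons of noncoding transcripts are missing from the drawing or shown only in part.

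Nfkb1 and Nfkb2 encode precursor proteins that are processed to DNA-binding subunits without an activation domain. The Nfkb1 mRNA (chromosome 3, gene at 135584655 to 135691547, minus strand) carried its strongest peak across the stop codon in both conditions. The PTC peak there ran from 135585164 to 135589394, over 420 nt of exons 24 and 25, enriched 2.38-fold at a −log10 FDR of 135. The control peak ran from 135584984 to 135589334, over 540 nt of the same exons, enriched 2.01-fold at a −log10 FDR of 68.3. The peaks shared 360 nt. Widths here count the exon blocks of a peak, some of which lie in other isoforms. Another pair covered the end of the 3' UTR, 300 nt with a −log10 FDR of 29 in the PTC list and 270 nt with 24.1 in the control list. Peaks thus covered 70.1% of the Nfkb1 3' UTR in PTC cells and 91.6% in control cells.

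In the Nfkb1 coding sequence a single control peak, with 438 nt of coding sequence in exons 17 to 19 (135594258 to 135601897, −log10 FDR 8.11), had no PTC peak over it. The other 4 PTC peaks and 2 control peaks of Nfkb1 lay in exons that are annotated only in noncoding transcripts of the locus and are intronic to the coding mRNA. They had −log10 FDR values of 2.27 to 8.33 in the PTC list and of 2.82 and 3.82 in the control list, and 1 pair of them overlapped.

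Nfkb2 (chromosome 19, 46304320 to 46312385, plus strand) had the lowest −log10 FDR of a strongest peak among the listed genes in the PTC list, a single coding peak over exons 11 and 12 (46308650 to 46308999, fold 1.97, −log10 FDR 3.58). In the control list its strongest peak lay elsewhere in the coding sequence, over exons 5 to 7 (46306964 to 46307651, fold 2.36, −log10 FDR 21.1), and no PTC peak overlapped it. This was the strongest of the 11 control peaks of these genes without a PTC partner. The other control peak, in exon 12, had a −log10 FDR of 5.4 and shared 91 nt with the PTC peak. Within its own list Nfkb2 stood at rank 9209 of 10859 genes for PTC and at rank 4014 of 11390 genes for control. With peaks of a −log10 FDR of at least 5 alone, Nfkb2 was in the control list only and the other 8 members were in both, beside 10.6% and 79.5% of the genes listed at that threshold, with 9.86% in the PTC list only.

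Rel, Rela and Relb encode the subunits with an activation domain, and Rel is the form most tied to lymphocyte activation. The Rel mRNA (chromosome 11, 23736847 to 23770970, minus strand) has a 3' UTR of 5418 nt, the longest of the set. In the PTC list its strongest peak took in the coding part of exon 10 with the end of exon 9, and the first 82 nt of the 3' UTR (23742183 to 23744281, 901 nt, fold 2.81), which stood at rank 822 of 23368 peaks by FDR. The control peak began at the same base of exon 9 and reached 621 nt into the 3' UTR (23741644 to 23744281, 1440 nt, fold 3.7, −log10 FDR 60.4), at rank 1371 of 29586 peaks. It also contained a second, short PTC peak of the 3' UTR (23741704 to 23741884, −log10 FDR 5.29).

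Upstream in the Rel coding sequence the PTC list held 181 nt of exon 7 (−log10 FDR 5.94), and the control list 450 nt over exons 4 to 7 (10.2) that contained it. Far down the 3' UTR the lists held different peaks. Those of the PTC list, 271 and 151 nt long, had midpoints 3484 and 4294 nt past the stop codon (−log10 FDR 6.9 and 4.22). That of the control list, 180 nt long, had its midpoint at 4758 nt (3.3). None of these distal peaks overlapped a peak of the other list, and the region between them and the stop codon peaks held none in either.

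Rela encodes the main activating subunit of the classical pathway, and its peaks lay at nearly the same bases in both lists. The main peak (chromosome 19, plus strand) spanned the stop codon from 5647116 to 5647891 in the PTC list, enriched 3.56-fold at a −log10 FDR of 38.3. In the control list it spanned 5647116 to 5647921, with 3.75 and 38.2. A weak coding peak of 150 nt was listed in each condition, over exons 3 and 4 for PTC (−log10 FDR 3.07) and exons 4 and 5 for control (3.59), and the pair shared 90 nt. Of the Rela nucleotides in PTC peaks 93.5% were also in control peaks, and of those in control peaks 90.6% were in PTC peaks.

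Relb, the partner of the processed Nfkb2 product in the noncanonical pathway, also had a stop codon peak in both lists, ending in the 3' UTR at the same base (chromosome 7, minus strand). It ran from 19606247 to 19606725 in the PTC list (fold 3.84, −log10 FDR 21.6) and from 19606247 to 19606665 in the control list (2.94, 10.7). A coding peak of 150 nt over exons 8 and 9 was in the control list only (19612579 to 19613788, fold 1.61, −log10 FDR 5.14).

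The GGACT form of the m6A consensus was searched on the mRNA strand, since the mark sits on its A. The sites below lie in peaks of the Rel family. Those of Rel and Rela are shown because they lie in peaks that span the stop codon in both lists. That of Relb lies in the part of the peak listed for PTC alone, close to the border of the control peak. Capitals mark GGACT, all lines read 5′ to 3′ from GRCm38 transcripts, and the number is the position of the A.
Rel, coding sequence, chromosome 11, 23742382: gaatgagcctGGACTatcagatgac
Rel, 3' UTR, chromosome 11, 23742256: ataagttgtaGGACTtaaataagta
Rela, coding sequence, chromosome 19, 5647382: ttgcggacatGGACTtctctgctct
Rela, 3' UTR, chromosome 19, 5647619: ggagctgggaGGACTcggtgcatcc
Relb, coding sequence, chromosome 7, 19606683: ccctatcactGGACTcttttgcagc

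The A of the Rel sites lay 117 nt before and 9 nt after the last base of the stop codon. That of the printed Rela sites lay 34 nt before and 203 nt after it. A further Rela site in peaks of both lists, 1369 nt before that base, is not printed. The Relb site lay 130 nt before the last base of the stop codon. Borders of peaks moved in steps of 30 nt, and the Relb site lay less than 1 such step upstream of the control peak. Nfkb2, with 7 GGACT sites, and Nfkb1, with 3 in its coding mRNA, had none of these inside a peak of either list. The longest noncoding peak of Nfkb1 in the PTC list held 1 further GGACT.

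The IkB genes differed in where their peaks lay. Nfkbia encodes IkB alpha, which exports NF-kB from the nucleus and is resynthesised after each activation. Its only peak sat at the start of the mRNA in both lists (chromosome 12, minus strand). The PTC peak covered 209 nt of exon 1, 91 of them 5' UTR and 118 coding (55492409 to 55492617, fold 1.73, −log10 FDR 24.1). The control peak covered 448 nt over exons 1 and 2 (55491711 to 55492647, fold 1.7, −log10 FDR 25.9) and contained the whole PTC peak. No peak reached the 3' UTR of 512 nt. Both GGACT sites of the coding part of exon 1 were inside the peaks of both lists, whereas the site 26 nt past the stop codon was in neither. They are printed to show this contrast.
Nfkbia, coding sequence, chromosome 12, 55492498: ggcacggccaGGACTgggccatgga
Nfkbia, coding sequence, chromosome 12, 55492423: acagcggcctGGACTccatgaagga
Nfkbia, 3' UTR, outside peaks, chromosome 12, 55489896: aaaagaatgtGGACTtgtatatttg

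Nfkbiz encodes a nuclear IkB protein that acts on transcription of secondary response genes. Its mRNA (chromosome 16, minus strand) had a block of signal in the middle of the coding sequence and another over the 3' UTR. In the PTC list the coding block came as 3 peaks, of 509 nt (−log10 FDR 46.9, fold 2.79), 269 nt (14.8, 1.91) and 180 nt (5.11, 2.13). In the control list it was 1 peak of 1226 nt over exons 5 to 10 (55816091 to 55819013, −log10 FDR 51.6, fold 6.26), which contained all 3. The 3' UTR peak was 1226 nt long in the PTC list (55811494 to 55812719, 16.9, 2.38) and 1345 nt in the control list (55811405 to 55812749, 22.9, 3.44). These covered 90.5% and 97.8% of the 3' UTR. Neither of the 2 GGACT sites of this mRNA, both in the 5' UTR, was in a peak, and the coding block of the control list held 8 GGAC sites.

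Nfkbid, which encodes a nuclear IkB protein with a part in regulatory T cell development, had no peak in either list. Its coding mRNA of 2039 nt contains 4 GGACT and 12 GGAC sites. Since transcript levels are not given in the files used here, absence of a peak does not separate an unmethylated mRNA from one too scarce to be called. Of all protein-coding genes in the annotation 45.5% had a peak in either list.

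Tnfaip3 encodes a ubiquitin-editing enzyme that switches off signalling upstream of the IkB kinase. It had the strongest peaks of the set, and within its lists it stood at rank 125 of 10859 genes for PTC and rank 205 of 11390 genes for control, which are the top 1.15% and 1.8%. On chromosome 10 (minus strand) the long coding exon 6 and the end of exon 5 carried a PTC peak from 19004318 to 19005586 (1050 nt, fold 4.89, −log10 FDR 246), and a control peak from 19004288 to 19005886 (1380 nt, 5.27, 108). The next peak took in exon 7 and most of exon 8, across the stop codon, from 19001450 to 19003838 in the PTC list (1829 nt, fold 8.05, −log10 FDR 207) and from 19001420 to 19003958 in the control list (1979 nt, 5.62, 141). In each list these peaks adjoin on the mRNA, so a stretch from the middle of the coding sequence far into the 3' UTR was listed in both conditions. A short peak near the 3' end had a −log10 FDR of 8.78 in the PTC list and 6.85 in the control list.

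Upstream of that stretch 3 Tnfaip3 peaks were in the control list only: 1 in the 5' UTR (19011792 to 19011912, −log10 FDR 3.75), 1 in the coding part of exon 1 (19011493 to 19011733, 6.14) and 1 over exons 3 and 4 (19006905 to 19007203, 2.68). With these, peaks covered 66.9% of the mRNA in the PTC list and 83.5% in the control list, the highest shares among the listed members in both. Tnfaip3 was also the only member with peaks of 4-fold or higher enrichment in both lists.

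Of 11 GGACT sites in the Tnfaip3 mRNA 8 were in peaks, the same 8 in each list, and 6 of these were in exon 6. A closely spaced pair of exon 6 and the only site of the stop codon peak are printed as examples from the strongest peaks.
Tnfaip3, coding sequence, chromosome 10, 19005031: aggccctgaaGGACTcccaggcgtg
Tnfaip3, coding sequence, chromosome 10, 19005016: cccaggcgtgGGACTtggctcctca
Tnfaip3, 3' UTR, chromosome 10, 19002414: atgcgtgctaGGACTggcagcagtt

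The A of the 3' UTR site was 50 nt from the midpoint of the PTC peak and 5 nt from that of the control peak. For the exon 6 pair the distances were 188 and 173 nt in the PTC list and 53 and 38 nt in the control list. Another exon 6 site, at 19004736, was nearer to the PTC midpoint, at 107 nt, and 242 nt from the control midpoint.

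Ikbkb encodes the catalytic subunit of the IkB kinase that marks classical IkB proteins for degradation. Of its mRNA nucleotides in PTC peaks 49.2% were also in control peaks, the smallest share after that of Nfkb2 at 37.9%, and of those in control peaks 52.0% were also in PTC peaks. On chromosome 8 (minus strand) the peak at the stop codon ran from 22660082 to 22660622 in the PTC list (541 nt, fold 2.71, −log10 FDR 22.3) and from 22660232 to 22660532 in the control list (301 nt, 2.02, 9.73). The order of size was the other way round for the distal 3' UTR peak, 271 nt in the PTC list (22659512 to 22659782, −log10 FDR 16.1) and 661 nt in the control list (22659332 to 22659992, 13.6). Adjoining peaks over exons 17 to 20 were in the PTC list only (−log10 FDR 4.84 and 3.11).

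In the control list only, Ikbkb had a peak in a noncoding exon that overlaps exon 14, with 70 nt in coding sequence (22669027 to 22669507, −log10 FDR 4.99), and peaks in other noncoding exons from 22681398 to 22681518 (3.23) and from 22704014 to 22704134 (2.91). The last had a fold enrichment of 14.2, the highest of all peaks of the set, over 121 nt. A peak in another noncoding exon was in both lists, with a −log10 FDR of 7.89 for PTC and 2.79 for control. Of 3 GGACT sites of the Ikbkb mRNA 1 was in a peak, in the PTC list only, 275 nt past the stop codon. Over all of its exon blocks, some of them in another isoform, that PTC peak held 2 GGACT and the control peak there 0. The site is printed because, as for Relb, it lay in a PTC peak alone. Unlike the Relb site it lay more than 1 border step of 30 nt from the control peaks.
Ikbkb, 3' UTR, chromosome 8, 22660116: tgtctgctttGGACTcctgggggag

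**Figure D2:**
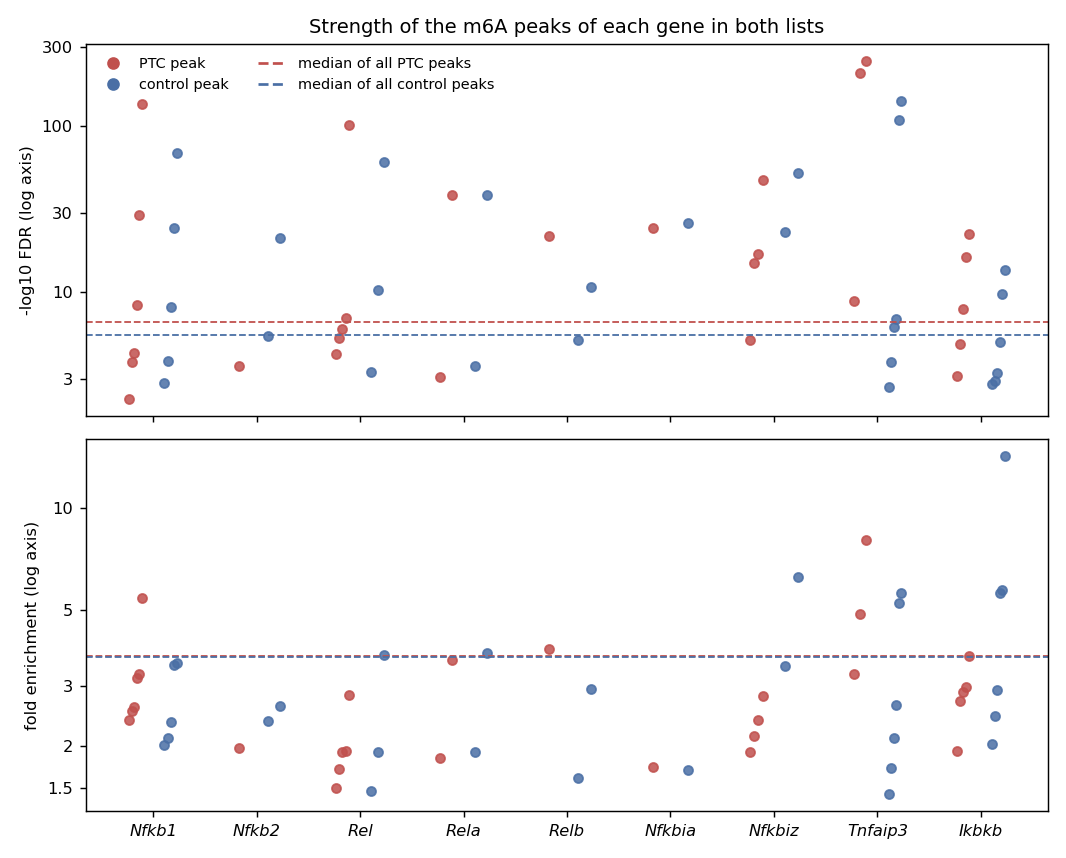
−log10 FDR (upper panel) and fold enrichment (lower panel), both on log axes, of every peak of the 9 listed genes, PTC (red) left of control (blue), with dashed lines at the medians of all peaks of each list. The Tnfaip3 peaks reach 246 in the PTC list and 141 in the control list on the FDR scale, while 3 of 28 PTC peaks and 6 of 29 control peaks reach a fold of 4.

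As a set the peaks had a median −log10 FDR above that of all peaks and a median fold below it. The median −log10 FDR was 8.55 in the PTC list and 8.11 in the control list, while the medians of all peaks were 6.61 and 5.47. Of 28 PTC peaks 20 passed a −log10 FDR threshold of 5 (71.4%, exact Clopper-Pearson 95% interval 51.3 to 86.8%), beside 59.8% of all PTC peaks. Of 29 control peaks 19 passed it (65.5%, 45.7 to 82.1%), beside 53.4% of all control peaks. By gene, 8 of the 9 passed it in the PTC list and all 9 in the control list, beside 75.9% and 73.0% of all listed genes. Peaks wider than 1000 nt made up 3 of 28 for PTC (10.7%, 2.27 to 28.2%) and 5 of 29 for control (17.2%, 5.85 to 35.8%), beside 8.34% and 8.42% of all. The median fold enrichment was 2.65 in the PTC list and 2.62 in the control list, and 3.66 and 3.65 over all peaks. A fold of at least 4 was reached by 3 of 28 PTC peaks (10.7%, 2.27 to 28.2%), beside 45.2% of all, and by 6 of 29 control peaks (20.7%, 7.99 to 39.7%), beside 45.0% of all. Intervals here cover counting error only, and peaks of 1 mRNA share their source and are not independent.

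Those 3 PTC peaks were both main peaks of Tnfaip3 and 1 noncoding peak of Nfkb1, and the 6 control peaks were the same pair of Tnfaip3, the coding block of Nfkbiz and 3 of Ikbkb. With peaks of a fold of at least 4 alone, 4 members were listed: Tnfaip3 in both lists, Nfkb1 in PTC only and Nfkbiz and Ikbkb in control only. The matching shares over all genes with such a peak were 59.4%, 16.0% and 24.6%.

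Of the 28 PTC peaks 21 (75.0%, 55.1 to 89.3%) were overlapped by a control peak by at least 1 bp, beside 78.8% of all PTC peaks. Of the 29 control peaks 18 (62.1%, 42.3 to 79.3%) were overlapped by a PTC peak, beside 60.2% of all control peaks. Under this 1 bp rule the shares were thus near those of the whole lists. The median −log10 FDR was 16.9 for PTC peaks with a partner and 4.22 without, and 18.2 for control peaks with a partner and 3.75 without. Over all peaks the medians also differed in this direction, 9.43 and 3.08 in the PTC list and 10.1 and 3.32 in the control list. The strongest PTC peak without a partner was the distal Rel peak at 6.9.

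For Nfkbia, Nfkbiz and Tnfaip3, 3 of the 9 listed genes, every nucleotide in a PTC peak was also in a control peak, which was so for 21.4% of the genes in both lists. For none of the 9 was the reverse so, beside 10.8% of all. Over the 9 mRNAs 87.5% of the nucleotides in PTC peaks were in control peaks and 70.5% of those in control peaks were in PTC peaks, and over all coding genes 81.8% and 66.8%.

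**Figure D3:**
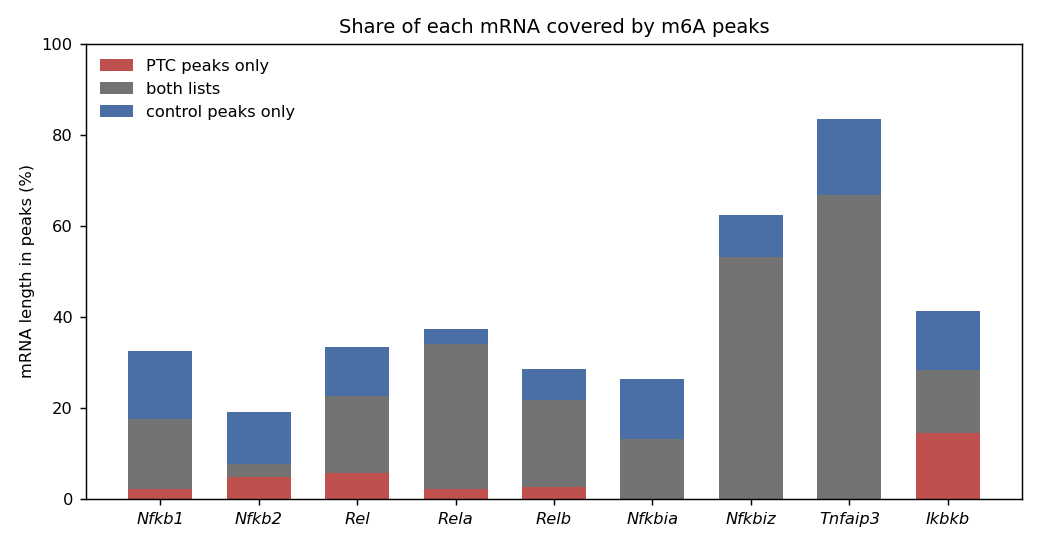
Share of the length of each mRNA in PTC peaks only (red), in peaks of both lists (grey) and in control peaks only (blue), in percent. The red part is absent for Nfkbia, Nfkbiz and Tnfaip3, and Tnfaip3 is covered over 66.9% in the PTC list and 83.5% in the control list.

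By region, 11 of 28 PTC peaks (39.3%, 21.5 to 59.4%) and 10 of 29 control peaks (34.5%, 17.9 to 54.3%) had their midpoint in the 3' UTR, beside 49.5% and 45.9% of all peaks of coding genes. Coding sequence held 12 in each list (42.9% and 41.4%), beside 41.0% and 42.2%. Noncoding exons held 5 PTC peaks (17.9%, 6.06 to 36.9%) and 6 control peaks (20.7%, 7.99 to 39.7%), beside 3.57% and 5.90% of all, and every one of these was in Nfkb1 or Ikbkb. The 5' UTR held 0 of 28 PTC peaks, with an upper limit of 12.3%, and 1 of 29 control peaks (3.45%), beside 5.79% and 5.93% of all. Within 200 nt of an annotated stop codon lay 5 PTC peaks (17.9%), beside 23.9% of all, and 6 control peaks (20.7%), beside 19.1%. In both lists these were peaks of Nfkb1, Rela, Relb and Ikbkb, with Rel in the control list too. In each list 1 of the Rela peaks was near the stop codon of a shorter isoform only.

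**Figure D4:**
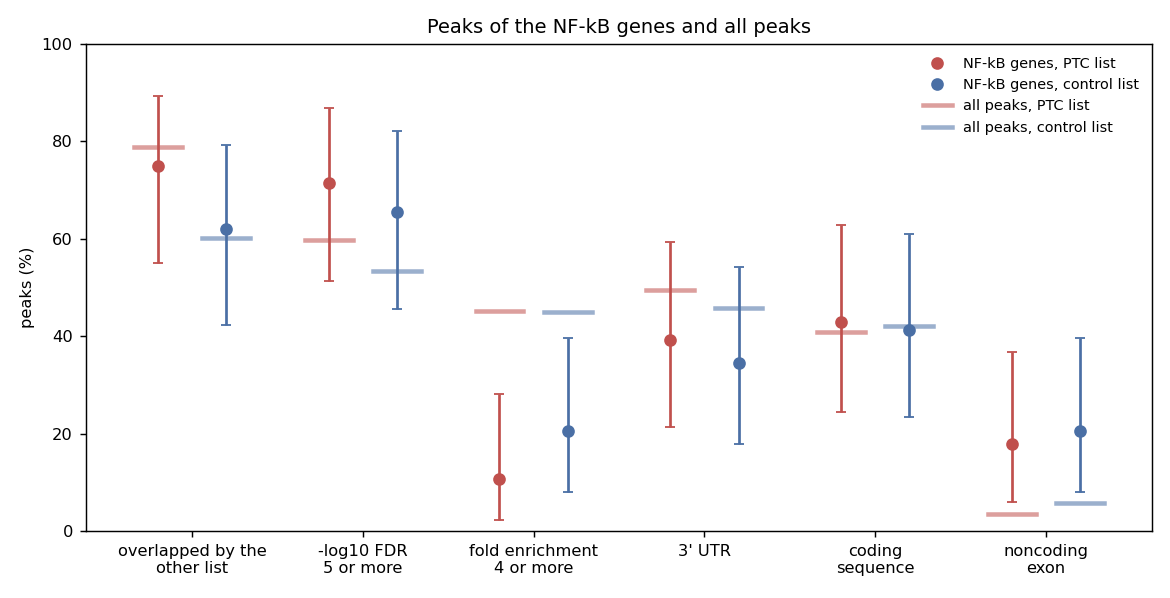
Percent of the peaks of the NF-kB genes with each property (points, with exact Clopper-Pearson 95% intervals for counting error) and of all peaks (short horizontal lines), PTC in red and control in blue. For the transcript regions the lines stand for all peaks of coding genes. For folds of 4 or more the points lie at 10.7% and 20.7%, below the lines at 45.2% and 45.0%, and at noncoding exons they lie at 17.9% and 20.7%, above 3.57% and 5.90%.

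Peaks covered 43.4% of the combined 3' UTR length of the 9 mRNAs in the PTC list and 49.2% in the control list, and 25.7% and 31.8% over all coding genes with a peak. For the coding sequence the shares were 27.0% and 36.0%, and over all 23.7% and 28.5%. These shares pool nucleotides, so mRNAs with long covered stretches weigh most. By gene the 3' UTR share ran from 0% for Nfkb2 and Nfkbia to 91.1% for Relb (PTC) and 97.8% for Nfkbiz (control). The median share of the whole mRNA in peaks was near that of all coding genes with a peak. It was 22.6% beside 21.8% in the PTC list and 27.7% beside 27.1% in the control list. Of the 41 GGACT sites in the 9 mRNAs 17 were in PTC peaks (41.5%) and 15 in control peaks (36.6%), beside 30.2% and 34.4% over all coding genes. Tnfaip3 alone held 11 of the 41 sites and 8 of those in peaks of each list. The pooled shares thus rest largely on this 1 gene and do not describe the set as a whole. All 15 sites in control peaks were also in PTC peaks, and the further 2 were those of Relb and Ikbkb. The Relb site lay less than 1 border step of 30 nt outside a control peak. The density of GGACT was 1.2 per kb inside peaks of either list and 1.26 outside, where all coding genes had 1.25 and 0.99. In windows reaching 50 nt to either side of the midpoint GGACT was found in 1 of 28 PTC windows (3.57%, 0.0904 to 18.3%) and 5 of 29 control windows (17.2%, 5.85 to 35.8%), beside 12.9% and 11.6% of all windows. The shorter GGAC, which contains every GGACT, was in 11 PTC windows (39.3%) and 12 control windows (41.4%), beside 36.8% and 34.9%. In windows of 100 nt to either side GGACT was in 5 of 28 for PTC (17.9%) and 6 of 29 for control (20.7%), beside 23.9% and 21.8% of all, and GGAC in 64.3% and 55.2%, beside 58.1% and 55.7%. Whole peaks held GGACT in 10 of 28 for PTC (35.7%) and 6 of 27 for control (22.2%), beside 37.0% and 33.8% of all, and GGAC in 19 of 28 (67.9%) and 18 of 27 (66.7%), beside 68.5% and 65.5%. The whole-peak shares leave out 2 control peaks whose blocks were not all in 1 transcript, that of Nfkb1 over exons 17 to 19 and that of Nfkbia, which held 2 GGACT sites on the mRNA.

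Most of the rest of the pathway was also listed in both conditions. Of 79 other genes, grouped by role, 77 were listed: 74 in both lists, 2 in the PTC list only and 1 in the control list only. The other 2 had no peak in either. Of all listed genes 79.2% were in both, 8.24% in the PTC list only and 12.5% in the control list only. The 79 genes held 197 PTC and 261 control peaks, a ratio of 0.755 beside 0.79 over all peaks, and their peaks had a median fold of 3.13 in each list. Of the 74 genes 11 had more PTC peaks, 40 had fewer and 23 had as many, beside 16.0%, 41.6% and 42.4% of all genes in both lists. The share with fewer was thus above that of all genes and the share with as many below it, and why was not tested.

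Of 4 other IkB proteins 3 were in both lists, with Nfkbie (−log10 FDR of its strongest peak 50.3 in the PTC list and 50.1 in the control list) and Nfkbil1 (6.96 and 8.05) strongest in the PTC list. Bcl3, a nuclear IkB protein that binds homodimers of the processed Nfkb1 and Nfkb2 products, was in the PTC list only (2.87). All 10 other kinases and their adaptors were in both lists, led by Tab2, an adaptor of the kinase Map3k7, with a PTC FDR too small to be listed and a control value of 225, and by the IkB kinase-related gene Ikbke (88.1 and 37.9). All 7 genes of the antigen receptor branch were in both, led by the ubiquitin ligase gene Traf6 (120 and 85.9) and the caspase gene Casp8 (113 and 63).

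Of 13 genes of the tumour necrosis factor receptor branch 12 were in both lists, led by the receptor gene Tnfrsf1b (265 and 141) and the ubiquitin ligase gene Birc3 (227 and 155). Rnf31, the catalytic subunit of the linear ubiquitin ligase, was in the control list only (3.77). Of 7 genes of the Toll and interleukin-1 receptor branch 6 were in both, led by Peli1 (151 and 116) and Irak2 (67 and 34.3), and the kinase gene Irak4 was in the PTC list only, with 1 peak of high fold and low confidence (17.3 and 3.79). All 13 negative regulators were in both lists, led by the deubiquitinase gene Cyld (153 and 111) and by Nlrc5 (116 and 102).

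Of 18 target genes 16 were in both lists, led by the transcription factor gene Irf4, whose FDR was too small to be listed in either, and the adhesion gene Icam1 (187 and 105). The cytokine gene Il2 and the chemokine gene Ccl4 had no peak. All 7 genes of proteins that destabilise IkB or Rel mRNAs were in both lists, led by Zfp36l1 (89.2 and 82.5) and Zfp36l2 (79.7 and 57.1). None of the 3 genes in 1 list only had a peak at a −log10 FDR of 5.

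**Figure D5:**
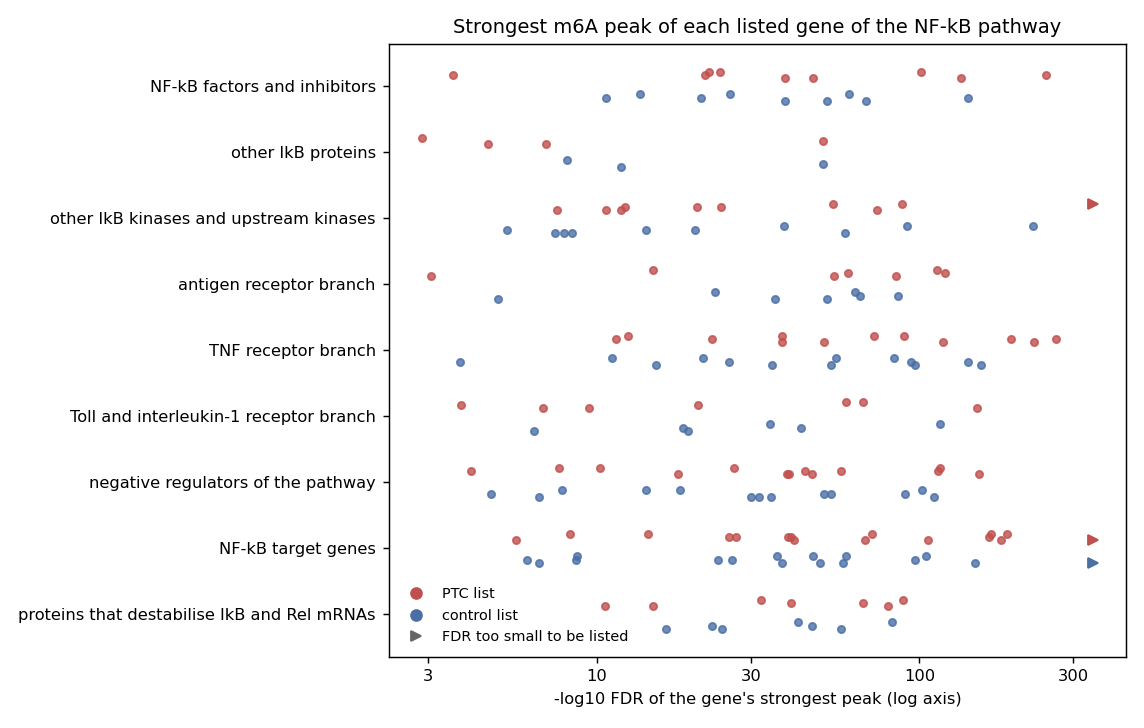
−log10 FDR of the strongest peak of each listed gene (log axis), by role in the NF-kB pathway, PTC (red) above control (blue), with triangles for an FDR too small to be listed. The NF-kB factors and inhibitors span 3.58 to 246 in the PTC list and 10.7 to 141 in the control list, within the range of the other groups.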

How the data were processed

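Immunoprecipitates and inputs of 2 samples each per condition were deposited by the authors as 1 peak list for PTC and 1 for control. Per the file headers each peak has exon blocks, a p-value, log10 values of the p-value and of the FDR (treated here as a score, sign reversed), and a linear fold enrichment. A deposited summary with 1 row per condition, which gives fewer peaks per condition than the lists hold for a reason it does not state, was not used, so the list totals are those of the lists alone. Per the submitters' processing notes BWA 0.7.12, MACS2 2.1.0 and GRCm39 were named, with no role. The caller's settings, and whether samples were pooled, are not given in the labels or headers.

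The coordinates matched GRCm38 instead: 99.8% of PTC and 99.9% of control peaks lay inside the gene of the same identifier in GENCODE M21, whose transcripts gave regions and sequences. Starts count from 0 in the files and from 1 here. Rows were matched by gene name. Peaks overlapped where exon blocks on 1 strand shared at least 1 bp. Midpoints of the blocks gave the region, in the order coding, 3' UTR, 5' UTR, noncoding exon. Motifs were searched on the mRNA strand only. No exon of another annotated gene lay under the peaks of these genes. Borders of peaks moved in steps of 30 nt (18 of 18 compared, within 1 nt). FDR values too small to be listed occurred for 80 PTC and 41 control peaks, none in these genes. The code was tested on simulated peaks and run in Python 3.11.15 with pandas 2.3.3 and SciPy 1.17.1.

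The 10 genes and all gene lists were chosen with earlier results of these data known. All 10 are named. Of each other list, genes in 1 list only, up to 5 genes without a peak and the 2 with the highest −log10 FDR in the PTC list are named. Alternatives were a −log10 FDR of at least 5, a fold of at least 4, the control list shortened to the length of the PTC list, other overlap rules and other windows. With 1 list per condition no p-value between conditions was computed.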

Additional observations from a re-analysis of the deposited data

How the results depend on the processing

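Of the results that answer a comparison, 31 values under the alternatives were within 1.5 times the reported count, or within the 95% interval of the reported share, and 19 were not. For the peak counts of single genes these numbers were 36 and 24. The intervals are wide: 3.57% of PTC windows with GGACT became 17.9% with the longer window, and 62.1% of control peaks overlapped became 44.8% with midpoints within 100 nt, both inside them. Keeping peaks with a fold of at least 4 left 1 member in both lists, 1 in the PTC list only and 2 in the control list only, with 3 PTC and 6 control peaks, 33.3% of the control peaks overlapped, and 44 other pathway genes in both lists, 4 in PTC only and 8 in control only. Keeping a −log10 FDR of at least 5 left 1 member in the control list only, 19 control peaks and 0 other pathway genes in the PTC list only. Asking for at least 50% of each peak to be shared gave 42.9% of PTC peaks and 41.4% of control peaks, and midpoints within 100 nt gave 46.4% of PTC peaks. No share over all peaks stands beside these stricter overlap rules, so the members cannot be set against the whole lists under them. GGACT in whole peaks was found in 35.7% of PTC peaks. GGAC was found in 64.3% of PTC windows reaching 100 nt to either side of the midpoint, and in whole peaks in 67.9% for PTC and 66.7% for control (18 of 27, without 2 control peaks not held whole by 1 transcript). The alternatives keep fewer peaks, ask for a stricter overlap or use a longer window, and why these values moved was not tested. A fold of at least 4 was reached by 45.2% of all PTC peaks and 45.0% of all control peaks. Of all genes with such a peak 59.4% were in both lists. No paired analysis was possible because each condition is 1 list, and for the same reason no replicate could be left out. Read depth and transcript levels are unknown.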

Other observations

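ATTTA, the core of the AU-rich elements through which many inflammatory mRNAs are degraded, was searched in the 3' UTRs after the values above had been seen. The mRNAs of 7 of the 9 listed genes held 29 copies, of which 16 (55.2%) lay in peaks of either list. Over all coding genes with a peak 35.1% of copies did so. The 3' UTR length in peaks of either list was 54.1% for the 9 mRNAs and 37.1% over all, so the copies lay in peaks about as often as the 3' UTR bases did. By gene, all 4 copies of Nfkb1 and all 4 of Nfkbiz were in peaks, as were 4 of 5 in Tnfaip3 and the 1 of Ikbkb. Of the 12 copies in the long Rel 3' UTR 3 were in peaks, and neither of the 2 in Nfkbia nor the 1 in Nfkb2 was.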
